A study of Bombus terrestris with 8 samples.

Results

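The sequences described here are the predicted microRNAs (miRNAs) of Bombus terrestris larvae for which the deposited table of predictions does not carry the source code MM. The table lists 123 rows with 111 distinct mature sequences, and each row has a source made up of the codes MC, MD and MM, alone or joined. A sequence was taken as a member if none of its rows held MM, and each mature sequence was counted once, which gave 42 members of 111, in 51 rows. The sources used here do not spell the codes out. The 42 members carry only a code and a number as their name, whereas none of the 69 sequences with MM does. Of the 51 rows, 38 had the source MC, 5 had MD and 8 had MC and MD.

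Small RNA was sequenced from pools of whole larvae of the buff-tailed bumblebee, each pool from 1 colony. The study took all larvae used here as female and queen-destined, after removing the queen from the colony, and they received no other treatment. It judged caste from unsampled larvae of the same batches, nearly all of which became queens, while a few became workers. Early-instar larvae came from the first and second instars, when their caste can still change, and late-instar larvae from the fourth instar, when it is set. The labels give 4 libraries for each instar, and 7 are used here, early-instar replicates 1 to 4 (EQ1, EQ2, EQ3 and EQ4) and late-instar replicates 1, 3 and 4 (LQ1, LQ3 and LQ4). The study left out replicate 2 of both instars after a check of its normalization, so the comparison rests on 3 early-instar against 3 late-instar libraries, and EQ2 is shown beside them. The values of EQ2 summed to 140733 over the table, against 220071 to 231005 in the other early-instar libraries. They are printed without rescaling, so a low value in EQ2 has to be read beside this lower total. Values of these libraries are always given in the order of their replicate numbers, and EQ1, EQ3 and EQ4 are called the kept early-instar libraries. The study paired early and late pools within colonies, and pools with the same number were taken as from the same colony. The deposited values are whole numbers. They were treated here as normalized reads, since their totals per library do not follow the numbers of miRNA reads the study tabulates, but the study's data statement speaks of raw counts, so the unit is not certain. The file gives no depth for a value, and the tabulated read numbers were not used to turn values back into counts, so no counting interval or detection limit is given. As whole bodies were pooled, fewer cells of a type and less RNA per cell cannot be told apart. The table holds no messenger RNA, so the label of the tissue was not checked against markers.

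MiRNAs are short RNAs that pair with messenger RNAs and lower their translation or stability. They are cut from a longer transcript that folds back on itself as a hairpin: the enzyme Drosha releases the hairpin, Dicer removes its loop, and 1 strand of the resulting duplex, the mature miRNA, is loaded into an Argonaute protein while the partner strand is usually degraded. Target choice rests mainly on the seed, bases 2 to 8 of the mature sequence, and miRNAs with the same seed are grouped into a family. A prediction tool looks for reads that stack on 1 arm of a genomic stretch that can fold in this way, and a prediction without a known relative has only its reads and its hairpin to show for itself.

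The 8 members with the highest mean level are shown first, because they carry most of the normalized reads of the 42, from 69.5% in EQ4 to 81.1% in LQ1. Each is printed 5′ to 3′ in DNA letters, with the seed in capitals.
MC1378: tGACAATTacagcggaccagtg
MCD999: cCTTAAGTttttcgagttgggtg
MC907: tGTGGTTGtaactactgttgaaa
MC349: gTGGATTAtggaaagaaatcg
MC858: tGTTGCGAggtcgaagggcagt
MD1676: tTTATCGTacttctccatagga
MC1017: tTGGGTTCtgtatgatactgctt
MC1227: aGGTTTGGaagaagctcaggat
The positions that follow are those of the precursor on scaffolds of the B. terrestris genome v.1.0, both ends included. MC1378 was listed on the plus strand of GroupUn1114 at 499877 to 499939, and MCD999 on the plus strand of Group5.1 at 2823855 to 2823928. MC907 was on the minus strand of Group4.2 at 599829 to 599923, and MC349 on the plus strand of Group12.2 at 2992588 to 2992656. MC858 was on the plus strand of Group3.3 at 727632 to 727723, and MD1676 on the minus strand of Group10.1 at 6647744 to 6647798. MC1017 was on the minus strand of Group5.1 at 5236246 to 5236308, and MC1227 on the plus strand of Group8.1 at 3040516 to 3040603. The table gives no gene, exon or intron for a row, and no annotation of this build was used.

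A group of 5 members is shown next because it was the only seed shared by members. Bases 2 to 8, in capitals, read AAGTGAT in all 5.
MC1003: aAAGTGATtgcggattttgtca
MC1103: tAAGTGATtgcgggttttgcca
MC1175: tAAGTGATcgcggattttgcca
MD1683: tAAGTGATcgcggatgttgtca
MD1737: tAAGTGATtgcggattttgtc
The 10 pairs of these sequences differed at 1 to 4 positions over their shared length. Of them, 3 were also the only members listed at more than 1 locus: MC1103 at 6, MC1003 at 4 and MC1175 at 2. With 1 locus each for MD1683 and MD1737, the 5 sequences took 14 of the 51 rows, on 11 scaffolds. Every row of a repeated sequence holds the same value, so its reads cannot be assigned to 1 of its loci.

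The other members with a shared sequence were a pair from 1 hairpin and a relative of a known family. MC59 is printed with its seed in capitals.
MC59: gGTCCGTTgtaattgtcactgg
The precursor of MC1378 is printed with 2 stretches in capitals, the mature sequence of MC1378 near its 5′ end and that of MC59 at its 3′ end.
MC1378 precursor: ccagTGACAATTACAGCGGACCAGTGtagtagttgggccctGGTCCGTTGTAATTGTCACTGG
MC59 filled positions 42 to 63 of these 63 bases, opposite MC1378, although the table lists it only at another place, on the plus strand of Group1.4 at 868570 to 868663. In that listed precursor 54.5% of the bases of MC59 were paired. For MC1378 in its own precursor the share was 95.5%, and the share for MC59 there was not measured. MCD555 is the only member whose seed, ATCACAG, is also that of sequences with MM, namely miR-11, miR-13b and miR-2a-2. In Drosophila, miR-2, miR-13 and miR-11 share this seed, and members of the miR-2 and miR-13 families act on pro-apoptotic genes. The precursor of MCD555 is printed with its mature sequence in capitals.
MCD555 precursor: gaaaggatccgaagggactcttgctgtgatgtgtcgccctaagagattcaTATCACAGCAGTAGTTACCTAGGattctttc
It lies on the minus strand of Group15.6 at 5457261 to 5457341, and its nearest end is 274 positions from that of miR-279b, on the same strand. MCD555 was the 1 row of 51 (1.96%) with another row of the table within 10000 bases, against 22 of 72 rows with MM (30.6%).

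In length and first base the 42 members lay close to the sequences with MM. They were 17 to 24 nucleotides long, with a median of 22, and 32 of 42 (76.2%) were 22 or 23 nucleotides, against 60 of 69 (87.0%). The first base was T in 23 of 42 (54.8%) and in 43 of 69 with MM (62.3%), where T stands for the U at which an Argonaute protein often anchors a mature miRNA. Among the members it was T in 10 of 13 with MD in the source, but in 13 of 29 without MD. The 42 members had 38 distinct seeds, and the closest sequence with MM to any member differed from it at 7 or more positions. The rows lay on 34 scaffolds, with 32 rows on the plus and 19 on the minus strand. Of them, 9 were on scaffolds named GroupUn.

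The members were mostly rare. Their mean over the 6 libraries kept by the study had a median of 20.5 normalized reads, against 339 for the sequences with MM, and ranged from 4.83 to 850.3. The highest member, MC1378, ranked 25 of 111, and 4 members were among the 50 highest means of the table. A mean of at least 10 was reached by 32 members, one of at least 50 by 8, one of at least 100 by 5 and one of at least 200 by 3. All the same, 38 of 42 had at least 1 normalized read in each of the 7 libraries. Together the members held between 0.944% and 1.46% of the table's total in the 6 libraries and 1.38% in EQ2. The spread between libraries of 1 instar was wider for members than for the sequences with MM: the median coefficient of variation was 43.1% against 18.6% in early-instar and 45.9% against 25.1% in late-instar libraries, beside a lower level, whose part in the spread was not tested.

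**Figure D1:**
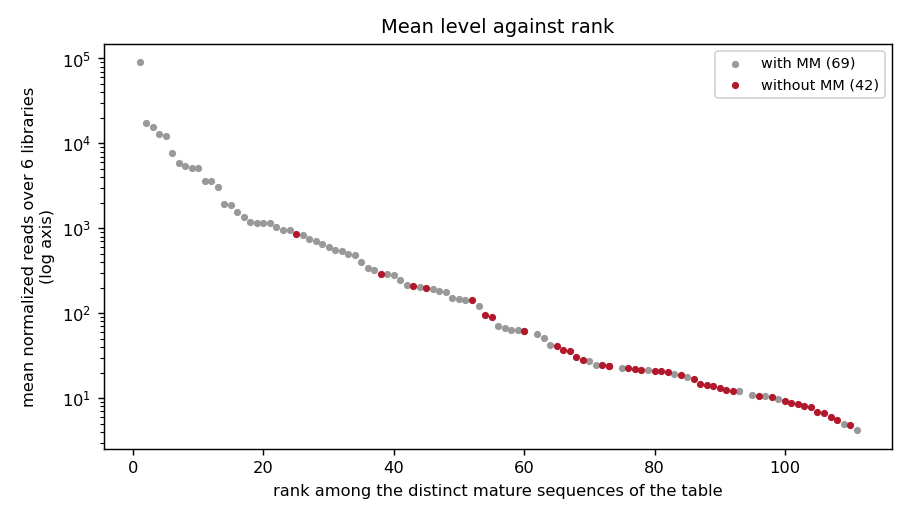
Mean normalized reads over the 6 libraries kept by the study (log axis) against rank among the 111 distinct mature sequences, with the 42 members in red and the 69 sequences with MM in grey. The highest member, MC1378, stands at rank 25 with a mean of 850.3, and most members lie in the lower part of the order.

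MC1378 alone made up 14.4% (EQ4) to 53.9% (LQ1) of the members' reads. It had 684, 326, 1004 and 359 normalized reads in EQ1 to EQ4, against 1125, 901 and 1029 in the late-instar libraries. It was near the late-instar level in EQ3 alone, and the early libraries were spread widely while the late ones lay close together. MC59, which matches the opposite arm of the same hairpin, had 8, 2, 6 and 6 in the early-instar and 18, 27 and 8 in the late-instar libraries. MC1378 thus exceeded MC59 in each of the 7 libraries, by 33.4-fold in LQ3 to 167-fold in EQ3. Reads of MC59 from this hairpin and from its listed locus cannot be told apart.

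The next members by level were spread over both instars. MCD999 had 296, 336, 540 and 238 normalized reads in EQ1 to EQ4 and 131, 254 and 288 in the late-instar libraries, so the groups overlapped. MC349 had 178, 272, 242 and 213 in early-instar and 156, 137 and 269 in late-instar libraries, again with overlap. MC858 had 95, 81, 192 and 95 in early-instar and 91, 236 and 145 in late-instar libraries, and replicate 3 was the highest of either instar. Beside these, MC1017 had 44, 62, 91 and 104 followed by 72, 85 and 151, and MC1227 had 34, 39, 56 and 77 followed by 57, 55 and 91. In both, replicate 4 was the highest library of its instar. The remaining 2 of the 8 highest, MC907 and MD1676, differed between instars and are described with that comparison.

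**Figure D2:**
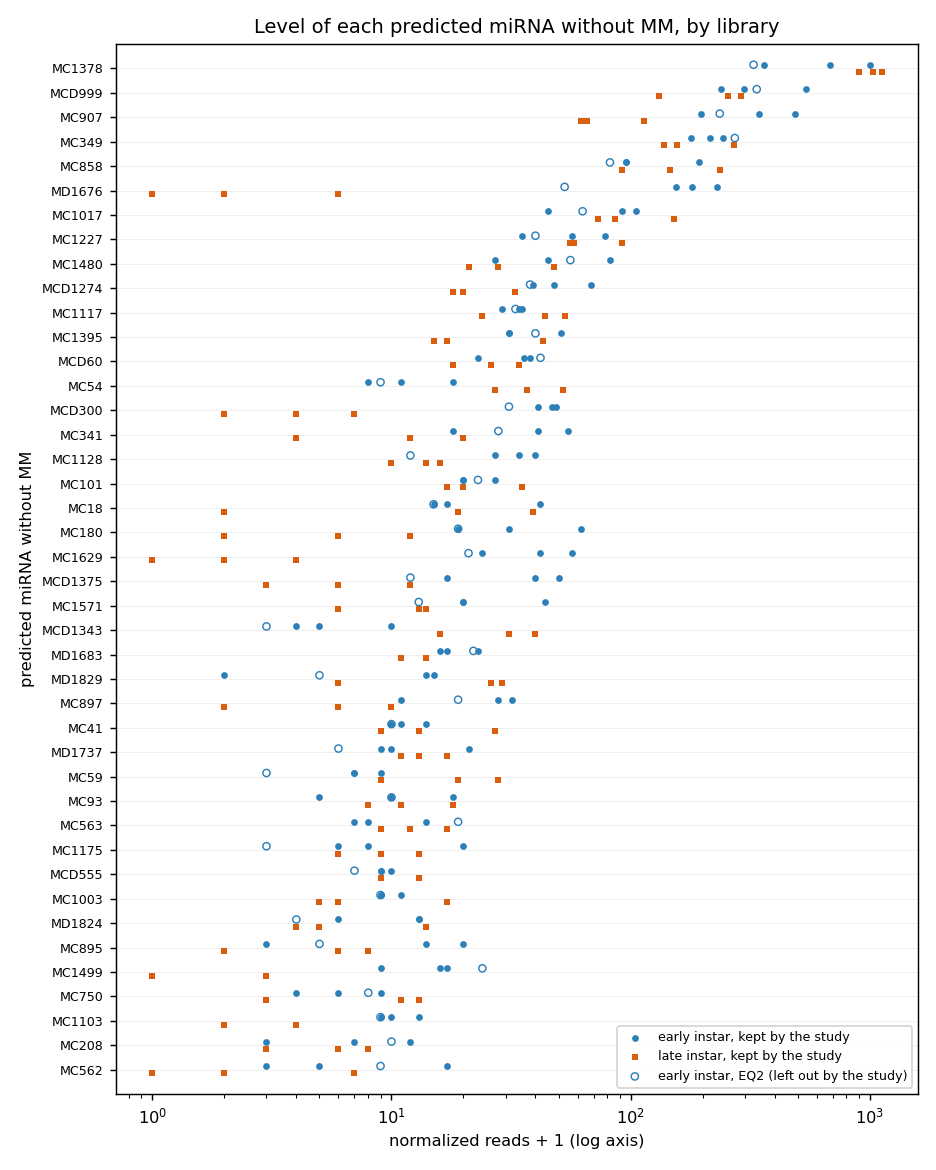
Normalized reads plus 1 (log axis) of each of the 42 members in each library, ordered by mean. Filled circles are the 3 early-instar libraries kept by the study, open circles EQ2 and squares the 3 late-instar libraries. MC1378 is the highest member in every library except EQ2 (MCD999) and EQ4 (MC907), and MD1676, MCD300 and MC1629 show the widest gaps between instars.

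The predicted hairpins ranged from near-perfect stems to stretches that hardly fold. The minimum free energy, the predicted stability of the best fold, was divided by length, and a lower value means a more stable stem. Its median was −37.7 kcal/mol per 100 nucleotides over the 51 precursors of members, against −42.2 over the 61 distinct precursors with MM. The median share of the mature sequence in base pairs was 82.6% against 85.7%, and 48 of 51 precursors folded with a single hairpin loop against 56 of 61. The mature sequence lay on the 5′ side of the stem in 33 rows, on the 3′ side in 16, and paired to both sides in 2, MC907 and MC180. A reading frame without a stop codon ran through 31 of 51 precursors of members (60.8%) and 42 of 61 with MM (68.9%). All 31 were among the 37 precursors of members outside the AAGTGAT family.

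The AAGTGAT family held the most stable single precursor of all members and had a lower median than the rest. Their 14 precursors had a median of −55.6 kcal/mol per 100 nucleotides, from −72.0 to −38.9, whereas the other 37 rows had a median of −33.0. In all 14 the mature sequence was on the 5′ side of a single-loop stem, with a median of 93.2% of its bases paired, against 76.2% in the other 37. None of the 14 had an open reading frame. The lowest value, −72.0, came from a copy of MC1103 on the plus strand of Group10.1 at 8011624 to 8011694. It is printed with the mature sequence in capitals, to show how closely the 2 arms mirror each other.
MC1103 precursor on Group10.1: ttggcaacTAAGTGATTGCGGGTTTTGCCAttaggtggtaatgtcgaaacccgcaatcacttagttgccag
The precursor of MD1683, on the minus strand of Group11.2 at 68546 to 68605, carries on its 3′ arm, at positions 36 to 56 of its 60 bases, the reverse complement of the whole 21-base MD1737.
MD1683 precursor: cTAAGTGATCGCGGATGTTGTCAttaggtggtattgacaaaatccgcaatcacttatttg
The likeness of the precursors ran beyond the mature sequence. Between the arms, the MC1003 precursor on Group5.1 holds taggtggta, and that on Group6.2 holds its reverse complement, taccaccta. The shared seed is thus part of a longer shared sequence, and whether these copies are miRNA genes was not tested. The family joined well-paired arms and related copies on 11 scaffolds to a low level. The 5 sequences had 1 to 22 normalized reads in any library, and their sum was 48, 44, 69 and 59 in EQ1 to EQ4 and 37, 44 and 50 in the late-instar libraries.

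**Figure D3:**
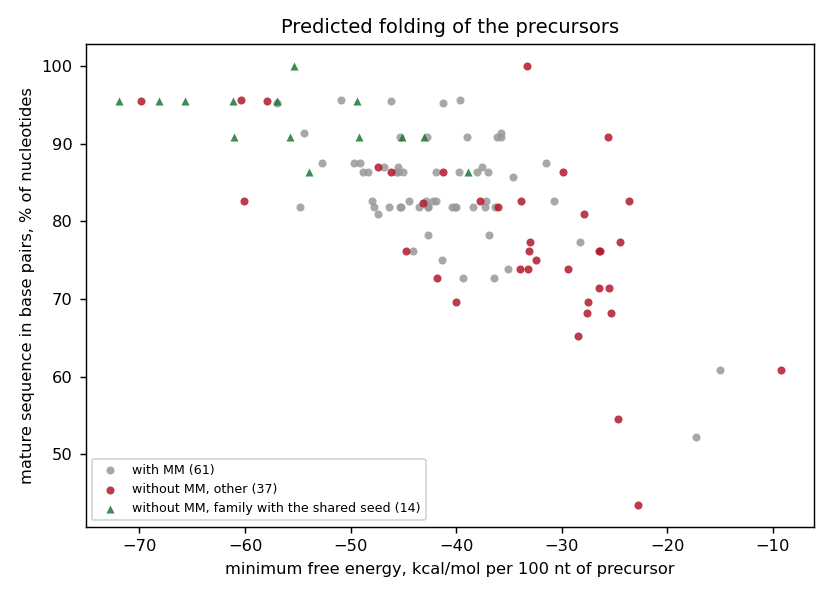
Share of the mature sequence in base pairs (%) against minimum free energy (kcal/mol per 100 nucleotides of precursor), 1 point per precursor, for 61 distinct precursors with MM (grey circles), the 14 of the AAGTGAT family (green triangles) and the 37 of other members (red circles). The family fills the stable, well-paired corner, down to −72.0, and MC180, at −9.18, lies at the other end.

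Outside the family, 4 members had precursors more stable than its median of −55.6 kcal/mol per 100 nucleotides. They were MC1378 (−69.8), MCD999 (−60.4), MCD1274 (−60.1) and MCD1375 (−57.9). The precursor of MCD999, the second highest member, is shown with its mature sequence in capitals because 95.7% of the mature bases were paired.
MCD999 precursor: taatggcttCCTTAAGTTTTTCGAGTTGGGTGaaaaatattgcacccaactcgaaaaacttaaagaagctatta
At the other end, MC907 was among the highest members but had 43.5% of its bases paired in a fold with 3 hairpin loops, and MC180 had 60.9% paired in a fold with 2. The precursor of MC907 is printed in the same way.
MC907 precursor: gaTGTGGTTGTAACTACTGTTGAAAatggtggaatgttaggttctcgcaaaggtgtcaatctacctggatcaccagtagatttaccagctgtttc
These 2 were also the only members whose mature sequence did not lie on 1 side of a stem.

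The comparison of late- with early-instar larvae was made by the study to find miRNAs associated with development, here within the queen pathway. Among the members, MD1676, MC907, MCD300 and MC1629 were much lower in late-instar larvae, MC180, MCD1375, MC341, MC897, MCD1274 and MC1128 were lower by less, and MCD1343 and MC54 were higher. These 12 of the 32 members tested (37.5%) passed an adjusted p of 0.05 in limma, fitted on log2(value + 20) over the whole table, 10 lower and 2 higher in late-instar larvae. Over all 97 sequences tested the share was 42.3%, with 26.8% lower and 15.5% higher. The median log2 difference was −0.21 over the 32 members and −0.14 over all 97. Rescaling the libraries moved the median of all sequences to −0.03 (equal sums) or 0.01 (median ratios), with the members at −0.13 or −0.11. A further 10 members were too low to be tested. Of the 12, MC1629, MC897, MCD300 and MD1676 passed the filter on low values (10 normalized reads in at least 3 libraries) through early-instar libraries alone. MCD1343 passed it through late-instar libraries alone. These members had to differ, so the p-values printed for them are descriptive and no support for a change. Among sequences that passed with libraries of both instars, 7 of 27 members (25.9%) and 33 of all 89 (37.1%) were called. All 12 moved in the same direction in each of the 3 colonies. They were called on these same libraries, so this is no separate support. With the filter recomputed, the count fell to 7 without EQ1, 4 without EQ3 and 7 without LQ1. It was 10, 9 and 8 when the sequences that passed over all 6 libraries were tested.

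**Figure D4:**
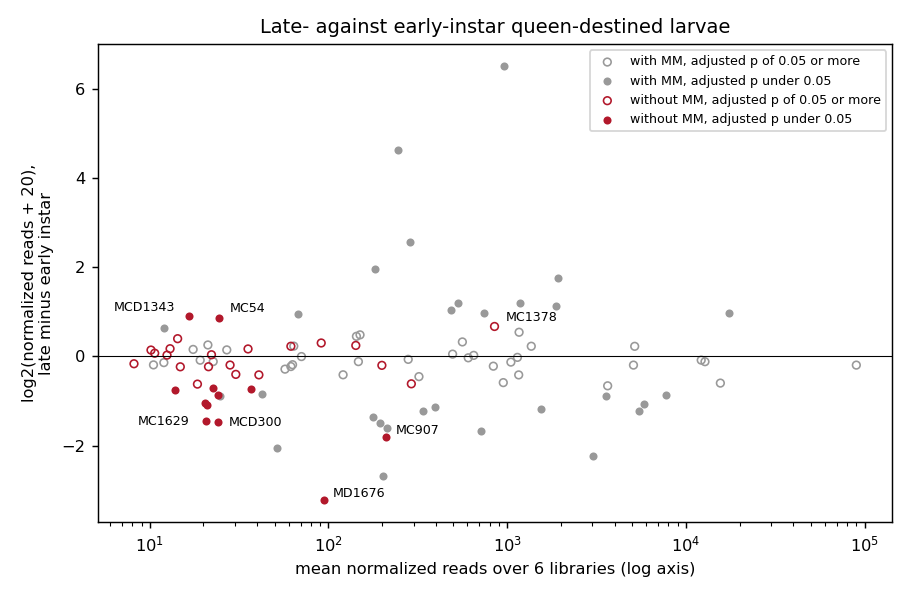
Difference between late- and early-instar larvae in log2(normalized reads + 20) against the mean over 6 libraries (log axis) for the 97 sequences tested, members in red and sequences with MM in grey, filled where the adjusted p was under 0.05. MD1676, at −3.23, has the largest fall of all, and MCD1343 and MC54 are the only filled members above 0.

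The sequences of the members that passed the threshold and were not yet printed follow, with the seed in capitals.
MCD300: tGTAGGTActagtcgtctctata
MC1629: tCCAGCCTcggacgaagcccat
MC180: tCGTGGATgttcgagagagacag
MCD1375: tATGTTTTgtagggccttgcgt
MC341: tGGACAGAaaggagaaccaggtc
MC897: cACCTTGGacgatgtagctggt
MCD1274: tGTGGGGCggcgtccgggtcact
MC1128: tATTTGTAcatgcgtggttagga
MC54: tTCGAGACtacacgctgatttt
MCD1343: tTATTCCGgtgaaccactcttc
They share no seed with each other or with another sequence of the table. MCD300 was on the plus strand of Group11.5 at 1346061 to 1346125, MC1629 on the minus strand of GroupUn732 at 2269099 to 2269165, and MC180 on the minus strand of Group10.1 at 10101770 to 10101830. MCD1375 was on the minus strand of GroupUn1079 at 2044 to 2121, MC341 on the minus strand of Group12.2 at 1698353 to 1698411, and MC897 on the plus strand of Group4.1 at 253355 to 253413. MCD1274 was on the plus strand of Group9.1 at 889091 to 889165 and MC1128 on the plus strand of Group7.3 at 662440 to 662510. MC54 was on the plus strand of Group1.4 at 24672 to 24760 and MCD1343 on the minus strand of Group9.6 at 796137 to 796215.

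MD1676 came closest to an on-off pattern. It had 228, 180 and 154 normalized reads in the kept early-instar libraries against 1, 0 and 5 in the late-instar ones. The early-instar libraries were far above the late ones, and EQ2, with 52, lay between the 2 groups. The early-instar mean of 187 ± 37.5 stood against a late-instar mean of 2.00 ± 2.65 (SD, n = 3 each), a difference of −3.23 on the log2 scale (SE 0.25, limma adjusted p = 2.57e-10). MD1676 passed the filter through early-instar libraries alone, so this p is descriptive. Its call remained with EQ2, a further early-instar library, included. There too it passed the filter through early-instar libraries alone, so this call is no support either. The precursor of MD1676, with 86.4% of the mature bases paired on the 3′ side, is printed with the mature sequence in capitals.
MD1676 precursor: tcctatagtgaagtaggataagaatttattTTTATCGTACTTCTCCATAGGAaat
The next row of the table on its scaffold, miR-316, lies 543641 positions away.

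MC907 was the highest of the members that fell. It had 196, 344 and 487 normalized reads in the kept early-instar libraries, 235 in EQ2, and 61, 65 and 113 in the late-instar libraries. Every early-instar library was above every late-instar one. The mean fell from 342 ± 146 (SD, n = 3) to 79.7 ± 28.9 (SD, n = 3), or 4.30-fold, a log2 difference of −1.81 (SE 0.30, limma adjusted p = 3.17e-05). This is also the member with the lowest share of its bases paired, in the precursor printed above.

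MCD300 and MC1629 were low in early-instar and near 0 in late-instar libraries. MCD300 had 46, 48 and 40 normalized reads in the kept early-instar libraries, 30 in EQ2, and 6, 1 and 3 in the late-instar libraries. Its difference was −1.47 on the log2 scale (SE 0.24, limma adjusted p = 3.17e-05), and its early-instar values were the least spread of these members. MC1629 had 41, 23 and 56 in the kept early-instar libraries, 20 in EQ2, and 3, 1 and 0 in the late-instar libraries. Its groups did not overlap, and its difference was −1.46 (SE 0.26, limma adjusted p = 9.18e-05). No fold is given for these members or for MD1676, because their late-instar values are a few normalized reads.

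MC180 and MCD1375 fell in every colony from a more uneven early level. MC180 had 30, 61 and 18 normalized reads in the kept early-instar libraries, 18 in EQ2, and 5, 11 and 1 in the late-instar libraries, a log2 difference of −1.08 (SE 0.28, limma adjusted p = 0.00318). Without EQ3, its highest library, the adjusted p was 0.052 with the filter recomputed and 0.046 on the sequences that passed over all 6 libraries. MCD1375 had 16, 49 and 39, with 11 in EQ2, and 2, 11 and 5, a log2 difference of −1.03 (SE 0.27, limma adjusted p = 0.00343). Neither overlapped between the 6 libraries compared, but EQ2 was level with LQ3 for MCD1375. The 2 differ widely in their precursors, at −9.18 and −57.9 kcal/mol per 100 nucleotides.

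The other 4 members that fell did so by less than a log2 difference of 1 and depended on single libraries. MC341 had 17, 40 and 54 normalized reads in the kept early-instar libraries, 27 in EQ2, and 11, 3 and 19 in the late-instar libraries (−0.85, SE 0.29, limma adjusted p = 0.0174), and it was the only one of the 12 whose groups overlapped. MC897 had 31, 27 and 10, with 18 in EQ2, and 5, 1 and 9 (−0.75, SE 0.27, limma adjusted p = 0.0247), so that in colony 4 it hardly moved. MCD1274 had 47, 67 and 38, with 37 in EQ2, and 17, 32 and 19 (−0.72, SE 0.26, limma adjusted p = 0.0247). MC1128 was the most even, with 26, 33 and 39 against 9, 13 and 15 (−0.70, SE 0.25, limma adjusted p = 0.0233). Its EQ2 value of 11, however, lay among the late-instar ones, and with EQ2 included the adjusted p of MC1128 was 0.171 and that of MCD1274 0.066. With EQ2 included and the libraries rescaled to equal sums, the limma adjusted p of MC1128 was 0.054, and MCD1274 was called. Over the fits that left out 1 of the 6 libraries and tested the same sequences, the call was lost for MC341 without EQ4, LQ1 or LQ3, for MC897 without EQ1, EQ3, LQ1 or LQ3, for MCD1274 without EQ1, EQ3, LQ1 or LQ4, and for MC1128 without EQ3, EQ4 or LQ1. The highest adjusted p in these fits was 0.114 for MC341, 0.144 for MC897, 0.17 for MCD1274 and 0.096 for MC1128.

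MCD1343 and MC54 were the members that rose. MCD1343 had 3, 4 and 9 normalized reads in the kept early-instar libraries, 2 in EQ2, and 15, 39 and 30 in the late-instar libraries. Its mean went from 5.33 ± 3.21 up to 28.0 ± 12.1 (SD, n = 3 each), a log2 difference of 0.90 (SE 0.26, limma adjusted p = 0.00695). MC54 had 10, 7 and 17, with 8 in EQ2, and 26, 51 and 36, a log2 difference of 0.87 (SE 0.26, limma adjusted p = 0.00779). In both the late-instar libraries were all above the early ones, EQ2 included, and LQ3 was the highest. Both mature sequences lie on the 3′ side of their precursors. Without EQ3, the adjusted p of MC54 was 0.057 with the filter recomputed and 0.0503 on the sequences that passed over all 6 libraries.

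**Figure D5:**
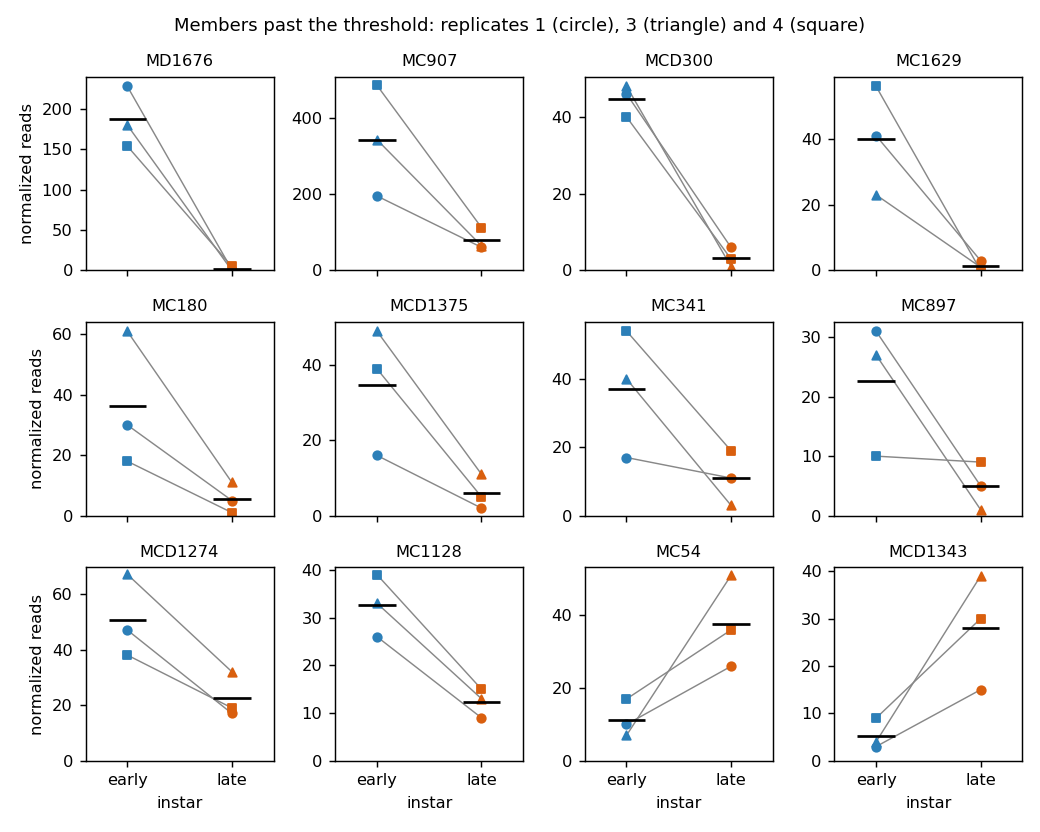
Normalized reads of the 12 members with an adjusted p under 0.05 in the 3 early-instar (blue) and 3 late-instar (orange) libraries, each panel on its own axis from 0. Lines join the pools of 1 colony, symbols mark replicates 1 (circle), 3 (triangle) and 4 (square), and black bars are means. All lines of a panel run the same way, and in MC341 alone the groups overlap.

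The study judged a miRNA as changed by a log2 offset fold change of at least 1, which sets the lowest value of the higher group plus 20 against the highest of the lower group plus 20. By that measure MD1676 (−2.80) and MCD300 (−1.21) were the only members past it, both lower in late-instar larvae, that is 2 of 42 where the whole table had 9.91% (5.41% lower and 4.5% higher). With EQ2 included, MD1676 alone was past it. Counting only whether the ranges of the 3 early- and 3 late-instar libraries were apart, 15 of 42 members were, 13 lower and 2 higher in late-instar larvae, against 46.8% of the 111 sequences of the table (30.6% lower and 16.2% higher). The 4 of these that were not called were MC1103, MD1683, MC1499 and MC1571.

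Several of the well-expressed members did not pass the threshold. MC1378 was higher on average in late-instar larvae, 1018 ± 112 against 682 ± 323 (SD, n = 3 each), but the log2 difference of 0.67 had an SE of 0.30 (limma adjusted p = 0.0792). The log2 difference was −0.15 in colony 3 and 0.70 and 1.47 in colonies 1 and 4. Its call depended on the processing. The limma adjusted p was 0.008 with EQ2 included, and 0.022 when those libraries were also rescaled to equal sums. Without EQ2 it was 0.048 with equal sums, 0.031 with median ratios and 0.011 when EQ3 was left out. The direction was the same in all of these. MCD999 differed by −0.61 (SE 0.31, limma adjusted p = 0.12) and passed without EQ4 (0.018). MC349, MC858, MC1017 and MC1227 differed by −0.20, 0.25, 0.30 and 0.23, each with an SE of 0.27 to 0.31 and a limma adjusted p of 0.51 or more. MD1829, at 17 nucleotides the shortest member, had 14, 13 and 1 normalized reads in the kept early-instar libraries, 4 in EQ2, and 25, 28 and 5 in the late-instar libraries (0.40, SE 0.29, limma adjusted p = 0.308).

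In the AAGTGAT family no call was made. MD1683 had 15, 22 and 16 normalized reads in the kept early-instar libraries, 21 in EQ2, and 13, 13 and 10 in the late-instar libraries, a log2 difference of −0.23 (limma adjusted p = 0.555). MD1737 had 9, 8 and 20, with 5 in EQ2, and 10, 12 and 16, a log2 difference of 0.03 (limma adjusted p = 0.935), whose sign changed when single libraries were left out. The other 3 were too low to be tested. MC1103, with the most loci, had 9, 12 and 8, with 8 in EQ2, and 1, 3 and 3. MC1003 had 8, 8 and 10 and then 5, 4 and 16, and MC1175 had 7, 19 and 5 and then 8, 12 and 5, both with overlap. MCD555 was also too low to be tested, and its values were even: 9, 6, 8 and 8 in EQ1 to EQ4 and 12, 8 and 8 in the late-instar libraries.

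The summed level of the members overlapped between the instars. It was 2371, 3382 and 2486 normalized reads in the kept early-instar libraries, 1946 in EQ2, and 2088, 2206 and 2603 in the late-instar libraries. The means were 2746 ± 553 and 2299 ± 270 (SD, n = 3 each, exact two-sided permutation p = 0.3, where the smallest p that 3 against 3 can give is 0.1). The permutations did not use the pairing of pools by colony. MC1378, with a higher mean in late-instar larvae, weighed heavily in this sum. Without it the early-instar sums (1687 to 2378) were all above the late-instar ones (963 to 1574), at the smallest p the exact test can give, 0.1. As a share of the table the members held 1.22% in early- and 1.15% in late-instar larvae (exact permutation p = 0.7, n = 3 each).

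The 16 members not named for their level, change, copies or seed had 0 to 81 normalized reads in any of the 7 libraries and means of 4.83 to 40.8. Of these, 11 were tested. Their log2 differences ran from −0.62 to 0.17 and the lowest limma adjusted p was 0.0646. Of these, MC1571 was called with a pseudocount of 1 or 5 and without EQ4, and MC1395 without LQ3.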

How the data were processed

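The authors filtered and adapter-trimmed the reads, and used PatMaN to place them on version 1.0 of the bumblebee genome. They scaled each library to a common total and matched sequences to miRBase v.21. The deposited values were taken as a score, normalized reads without decimals, because their totals do not follow the numbers of miRNA reads in the study's supplement, and no count test was run. The study's data statement speaks of raw counts, so the unit is not certain. The columns of 7 queen-destined libraries were used. Another 7 columns of per-sample values belong to no sample given here and were not used, and late-instar replicate 2 was not analysed here.

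Values were tested as log2(value + 20) with limma 3.58.1 in R 4.3.3 over the 97 distinct sequences with at least 10 in at least 3 of 6 libraries, with Benjamini-Hochberg adjustment over all 97 and a threshold of 0.05. The step was tested on simulated data. Sums were compared by exact permutation of the libraries, without regard to colony pairs. Precursors were folded with RNAfold 2.7.2. Members were named if they passed the threshold, were among the 8 highest means, had several loci or both arms, shared a seed, or were among the 5 largest rises or falls. Members and lists were chosen with earlier results of these data known.

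The study's methods pair early and late pools by colony, and same-numbered pools were taken as the pairs. Deviations from the group means correlated at 0.024, 0.079 and 0.456 for replicates 1, 3 and 4 over 97 sequences. For differently numbered libraries the correlations ran from −0.436 (EQ1 with LQ4) to 0.338 (EQ1 with LQ3). Alternatives were the inclusion of EQ2, other pseudocounts, filters and scalings, the colony as a block, every row kept, and each library left out. The limma p-values set a difference against the spread between pools, moderated towards the spread of all sequences tested, and the main fit did not use the colony pairs. In some fits members as unlike as MC1128 and MC1378 had the same SE: 0.295 with EQ2 included, 0.330 without EQ1, 0.329 without EQ3 and 0.311 without EQ4. Adjusted p-values from these fits therefore rest on a shared spread and do not measure the spread of the single member.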

Additional observations from a re-analysis of the deposited data

Results flagged for a closer look

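Over the 43 sets of 4 early-instar values tested, 1 for each member and 1 for their sum, 3 had a highest or lowest library far from the others by Dixon's ratio, the gap to the nearest value divided by the range. Chance flags about 1 in 20 groups. MC18 had 41 normalized reads in EQ4 against 14 to 16 in the other 3 early-instar libraries (ratio 0.926). MC858 had 192 in EQ3 against 81 to 95 (ratio 0.874). MC1003 had 10 in EQ4 against 8 in each of the others (ratio 1), a gap of 2 normalized reads.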

How the results depend on the processing

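The count of 12 members called was 12 or 13 under the other pseudocounts, no filter, both rescalings, every row kept and EQ2 included, though not always of the same members. The colony block changed no call, with the same 12 members called (replicate block, 12). A filter at a mean of 50 left 8 members to test, of which 2 were called. Leaving out a library gave 4 to 10 calls with the filter recomputed, which drops MC1629, MC897, MCD300 and MD1676 without an early-instar library and MCD1343 without a late-instar one. Other calls were lost among members still tested, and the count was 8 to 12 on the sequences that passed over all 6 libraries. MC907 (22 alternatives) and MCD1375 (21) were called in every alternative that tested them. So were MD1676 (19), MCD300, MC1629 and MCD1343 (18 each). These latter members passed the main filter through 1 instar alone and had to differ, so their repeated calls are no sign of robustness. The count past the log2 offset fold change was 1 with EQ2 included, 5 with an offset of 1 and 1 with an offset of 100. Of the uncalled differences, that of MC858 was −0.059 (without LQ3) to 0.54 and that of MD1737 −0.064 (without EQ3) to 0.19 when a library was left out, with −0.039 without EQ1 and −0.042 without LQ4 for MD1737. The causes were not tested. With 3 libraries a group, and values of a few normalized reads, small differences among the lowest members could not be resolved.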

Other observations

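MC1499 was chosen after its values were seen. It had 8, 15 and 16 normalized reads in the kept early-instar libraries, 23 in EQ2, and 0, 0 and 2 in the late-instar libraries, all early above all late. It was too low to be tested over the 6 libraries, and it was called as lower in late-instar larvae with no filter or with EQ2 included. With EQ2 it passed the filter through early-instar libraries alone and had to differ. As it was also chosen for its values, neither call is support for a change.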
